A study of Mus musculus with 8 samples.

Results

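In all, 10 genes that mark the collecting duct of the kidney were followed in the CD3-positive cells of xenografts: Aqp2, Aqp3, Hsd11b2, Scnn1a, Scnn1b and Scnn1g of principal cells, Slc4a9, Atp6v1b1 and Atp6v1g3 of intercalated cells, and Defb1 of distal tubule epithelium. The members were 10 of 18820 genes, each read by 1 of the 21218 probe sets with exactly 1 gene symbol, and all 8 arrays were used. The tolerant group held 4 samples from wild-type CD1 mice that were given antibodies against CD4, CD8 and CD40L, and the rejecting group held 4 samples from wild-type CD1 mice without treatment. Mice of both groups carried a graft of tissue derived from human embryonic stem cells, and the CD3-positive cells were collected at day 30. CD1 is an outbred strain. The labels name neither the graft tissue nor the number of mice behind a sample, so the spread between samples may be technical. The genes were chosen by their measured tolerant minus rejecting values, so their values in that comparison are a description. Counts of them that passed a test are given beside the share of all probe sets that did, and support nothing.

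The collecting duct is the last segment of the nephron, where the final water, salt and acid content of urine is set. Its principal cells take up water through aquaporins and sodium through the epithelial sodium channel ENaC, under vasopressin and aldosterone. Its intercalated cells move acid and base with a proton pump, the V-ATPase, and with bicarbonate exchangers. T cells are not known for this programme as a whole. Some of its genes, among them Aqp3, the ENaC subunits and Defb1, are also made by cells outside the collecting duct. Whether the CD3-positive cells make any of them was not tested.

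Values are log2 RMA values, where 1 unit is a doubling, and differences are tolerant minus rejecting. A background line was set on each array from 1182 olfactory and vomeronasal receptor probe sets, at their 99th percentile, since T cells are not expected to express these receptors. It lay at 1.05 and 0.99 on tolerant arrays 3 and 4 and at 1.01 and 1.14 on rejecting arrays 3 and 4. On the 4 arrays numbered 1 and 2 it ranged from 1.15 to 1.35. The share of probe sets above it was 2.54% to 5.73% on the 4 arrays numbered 1 and 2, and 10.7% to 17.1% on the 4 arrays numbered 3 and 4, so the sets are described apart. The number of arrays limits the precision. In the T cell list, Cd3d, Cd28 and Cd247, 3 of 12 measured genes, were below the line on every array. Cd3e read 2.75 and 3.82 on tolerant arrays 3 and 4 and 1.51 and 2.36 on rejecting arrays 3 and 4.

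On tolerant arrays 3 and 4, most of the collecting duct genes stood out from every other array. Of the 10 genes, 9 had a higher mean in tolerant than in rejecting samples on the arrays numbered 3 and 4, where 48.2% of all probe sets did. Both tolerant values lay above both rejecting values for 7 of the 10, where this held for 19.3% of all probe sets. The median difference over the 10 genes was 0.83, against -0.01 over 18820 genes, and it was 0.45 without tolerant replicate 3. None of the 10 passed limma's test at an adjusted p under 0.05, which 0.0518% of probe sets did, and 7 had an unadjusted p under 0.05 in the tolerant-higher direction, which 4.64% did. These shares restate how the genes were chosen.

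**Figure D1:**
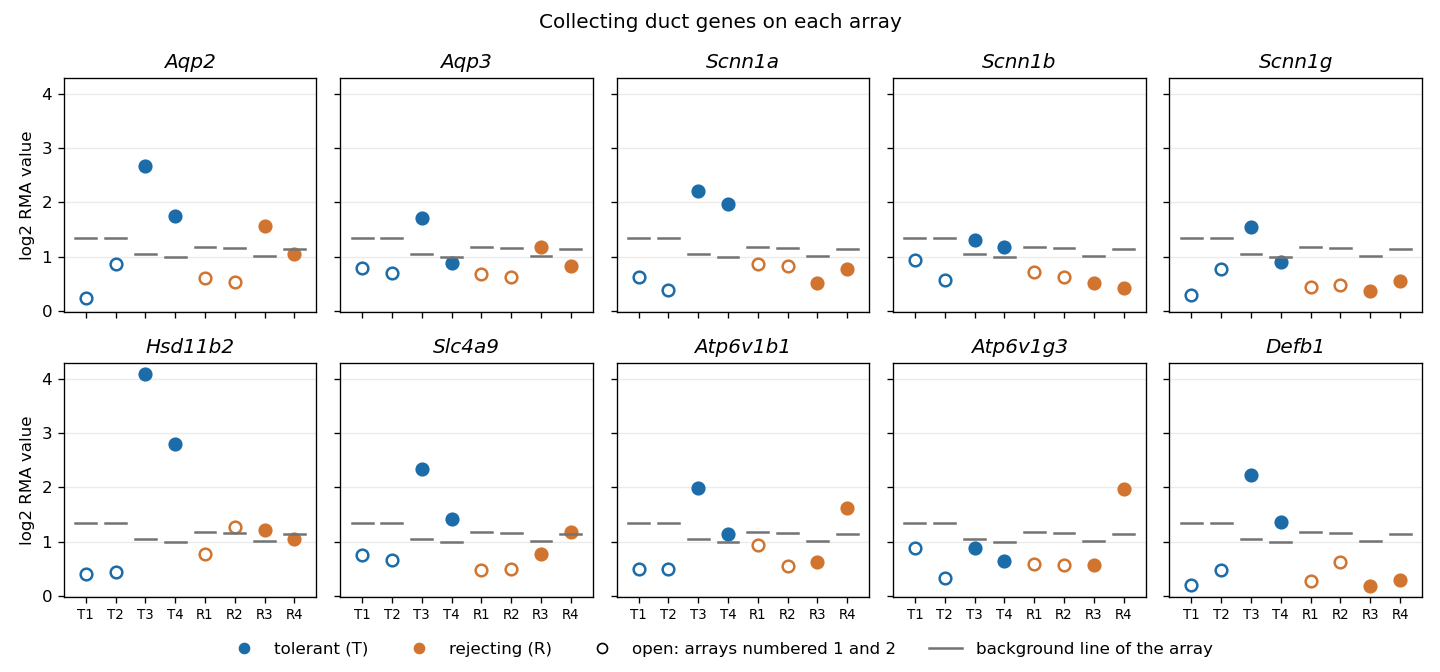
Log2 RMA value (vertical axis) of each collecting duct gene on each array, tolerant arrays T1 to T4 in blue and rejecting arrays R1 to R4 in orange, with open circles for the arrays numbered 1 and 2 and a grey bar for the background line of each array. T3 is the highest array in 9 of the 10 panels, and in Atp6v1g3 it is R4.

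Hsd11b2 (probe set 10574780) encodes the enzyme that inactivates glucocorticoids in aldosterone-responsive cells and so keeps the mineralocorticoid receptor free for aldosterone. It read 4.09 and 2.80 on tolerant arrays 3 and 4 and 1.22 and 1.04 on rejecting arrays 3 and 4. The tolerant pair lay well above the rejecting pair, which sat close to the background line, and the difference was 2.31 with a standard error of 0.41. This was the largest difference among the 10 genes. On the arrays numbered 1 and 2 the order was the other way, with 0.41 and 0.44 in tolerant and 0.77 and 1.27 in rejecting samples.

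The ENaC subunits, which together form the sodium channel of the principal cell, were higher in both tolerant samples of the arrays numbered 3 and 4. Scnn1a (10541885), the alpha subunit, read 2.20 and 1.97 in tolerant and 0.51 and 0.77 in rejecting samples. Its tolerant values were above the line and close to each other, its rejecting values were below the line, and the difference was 1.45 with a standard error of 0.15. Scnn1b (10557124), the beta subunit, read 1.31 and 1.17 in tolerant and 0.52 and 0.42 in rejecting samples, a difference of 0.77. Scnn1g (10557111), the gamma subunit, read 1.54 and 0.90 in tolerant and 0.36 and 0.55 in rejecting samples, a difference of 0.77 that became 0.45 without tolerant replicate 3, and only the first of its tolerant values was above the line. Scnn1b and Scnn1g are neighbouring genes on chromosome 7, and Scnn1a lies on chromosome 6. On the arrays numbered 1 and 2 all 3 subunits were below the line, between 0.28 and 0.94 in tolerant and between 0.45 and 0.86 in rejecting samples.

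Aqp2 (10426760), the vasopressin-regulated water channel of the apical membrane, read 2.66 and 1.74 on tolerant arrays 3 and 4 and 1.56 and 1.05 on rejecting arrays 3 and 4. The groups did not overlap, but the lower tolerant value was only slightly above the higher rejecting value, and the difference was 0.89 with a standard error of 0.33. It was 0.43 without tolerant replicate 3 and 1.35 without tolerant replicate 4. On rejecting array 3, Aqp2 was above the line as well. Aqp3 (10512156), the water and glycerol channel of the basolateral membrane, read 1.71 and 0.88 in tolerant and 1.17 and 0.82 in rejecting samples. Its groups overlapped, and its difference of 0.30 became -0.12 without tolerant replicate 3, 0.72 without tolerant replicate 4, 0.48 without rejecting replicate 3 and 0.12 without rejecting replicate 4. Over the 8 arrays Aqp2 and Aqp3 correlated by 0.887 (Pearson's r, n = 8 arrays, which share the contrast of bright and dim arrays). The promoter of Aqp2 is shown because this gene is the defining marker of the principal cell. It lies at chr15:99578806-99579105 on the plus strand of GRCm38.p6 (RefSeq), from 250 bases before the start to 50 after it, with the searched motifs in capitals.

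Aqp2: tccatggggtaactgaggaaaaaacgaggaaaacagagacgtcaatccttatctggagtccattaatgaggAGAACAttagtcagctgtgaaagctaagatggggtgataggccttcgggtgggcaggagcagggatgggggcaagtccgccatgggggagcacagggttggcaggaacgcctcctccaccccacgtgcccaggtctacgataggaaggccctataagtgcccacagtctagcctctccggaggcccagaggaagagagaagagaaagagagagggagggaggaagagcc

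The capitals mark AGAACA, an arm of the steroid hormone response element, to which glucocorticoid and mineralocorticoid receptors bind, with its first base 179 bases before the start. Of 32851 promoter windows of this length, 19.0% hold AGAACA on either strand. RefSeq windows were searched for 6 of the 10 genes, namely Aqp2, Aqp3, Scnn1b, Scnn1g, Atp6v1b1 and Atp6v1g3. The other motifs were TGACGTCA, the cyclic AMP response element, TGTTTAC, a forkhead motif, and AACCGGTT, a grainyhead-like motif. TGACGTCA (1.79% of all windows) and AACCGGTT (0.146%) were in none of the 6 windows.

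Among the intercalated cell genes, the groups did not overlap for 1 and overlapped for 2, as they did for Aqp3 of principal cells. Slc4a9 (10454885), a bicarbonate transporter of intercalated cells, read 2.33 and 1.42 on tolerant arrays 3 and 4 and 0.76 and 1.18 on rejecting arrays 3 and 4. Its groups did not overlap, and the difference was 0.90 with a standard error of 0.32. Without tolerant replicate 3 it was 0.44, and without tolerant replicate 4 it was 1.36. Atp6v1b1 (10539449), the kidney and inner ear form of the B subunit of the V-ATPase, read 1.99 and 1.15 in tolerant and 0.63 and 1.62 in rejecting samples. Rejecting array 4 lay between the tolerant arrays, and the difference of 0.45 became 0.02 without tolerant replicate 3, 0.87 without tolerant replicate 4, -0.05 without rejecting replicate 3 and 0.94 without rejecting replicate 4. Atp6v1g3 (10350343), the kidney form of the G subunit, read 0.89 and 0.65 in tolerant and 0.57 and 1.97 in rejecting samples. It was above the line on rejecting array 4 alone, and its difference of -0.50, with a standard error of 0.44, became 0.20 without rejecting replicate 4 and -1.20 without rejecting replicate 3. The promoters of these V-ATPase genes are shown because both read high on rejecting array 4. They lie on the plus strand of GRCm38.p6 (RefSeq) at chr6:83742767-83743066 for Atp6v1b1 and at chr1:138273488-138273787 for Atp6v1g3.

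Atp6v1b1: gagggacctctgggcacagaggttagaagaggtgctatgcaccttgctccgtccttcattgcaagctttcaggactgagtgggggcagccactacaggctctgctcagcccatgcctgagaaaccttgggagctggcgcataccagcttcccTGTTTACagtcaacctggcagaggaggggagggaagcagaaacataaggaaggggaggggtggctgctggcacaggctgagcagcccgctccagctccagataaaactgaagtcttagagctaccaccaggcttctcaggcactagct
Atp6v1g3: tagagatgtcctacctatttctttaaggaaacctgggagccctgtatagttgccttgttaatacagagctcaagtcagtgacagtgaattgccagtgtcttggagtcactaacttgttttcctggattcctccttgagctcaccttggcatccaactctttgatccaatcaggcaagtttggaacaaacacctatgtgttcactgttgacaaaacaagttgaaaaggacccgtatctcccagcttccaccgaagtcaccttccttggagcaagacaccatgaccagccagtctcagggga

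The capitals in the Atp6v1b1 window mark TGTTTAC, the forkhead motif, with its first base 98 bases before the start, which 3.65% of all windows hold on either strand. Of the letters searched, none was in the Atp6v1g3 window. FOXI1, a forkhead factor, is known to drive V-ATPase genes in intercalated cells, and Foxi1 itself read 1.10 and 0.85 on tolerant arrays 3 and 4 and 0.61 and 0.73 on rejecting arrays 3 and 4.

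Defb1 (10570741) encodes a beta-defensin, an antimicrobial peptide made by distal tubule and other epithelia. It read 2.23 and 1.37 on tolerant arrays 3 and 4 and 0.18 and 0.30 on rejecting arrays 3 and 4. The tolerant values were above the line and the rejecting values far below it, and the difference was 1.56 with a standard error of 0.28. On the arrays numbered 1 and 2, Defb1 lay between 0.19 and 0.48 in tolerant and between 0.27 and 0.63 in rejecting samples. The 3 genes Scnn1a, Scnn1b and Defb1 were above the line on both tolerant arrays and below it on both rejecting arrays, as were 2.36% of all probe sets.

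Tolerant array 3 carried higher values than tolerant array 4 for each of the 10 genes, where 57.1% of all probe sets did. The gap was 0.14 for Scnn1b, 0.24 for Scnn1a and 1.29 for Hsd11b2. Tolerant array 3 was the highest of the 8 for 9 of the 10 genes and for 15.6% of all probe sets. The number of the 10 genes above the line was 9 and 7 on tolerant arrays 3 and 4, and 3 and 3 on rejecting arrays 3 and 4. It was 0 on both tolerant arrays numbered 1 and 2 and 0 and 1 on rejecting arrays 1 and 2. Over the 8 arrays, 8 of the 9 other genes correlated with Atp6v1g3 by 0.31 or less and Atp6v1b1 by 0.592, whereas the highest r between members, 0.957, was that of Hsd11b2 and Defb1.

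**Figure D2:**
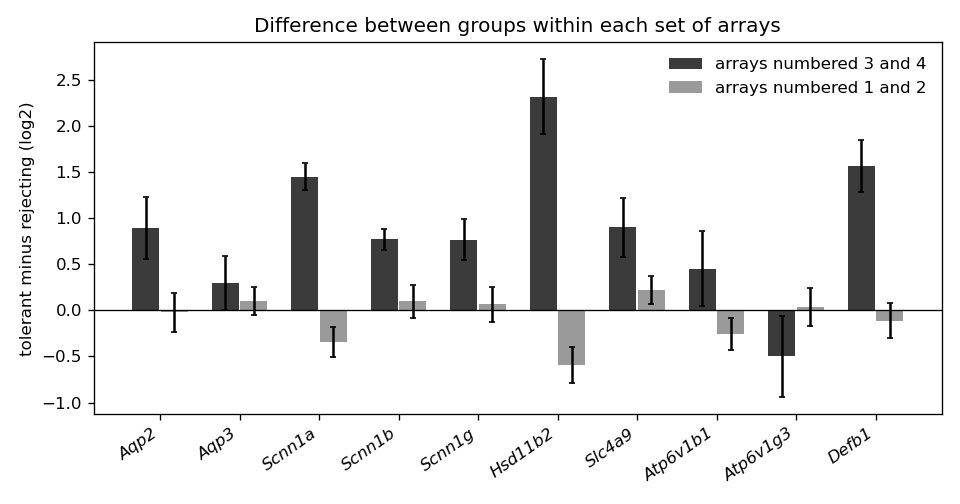
Tolerant minus rejecting difference of each collecting duct gene on the log2 scale (vertical axis), dark bars for the arrays numbered 3 and 4 and light bars for the arrays numbered 1 and 2, with n = 2 samples a group and error bars for limma's standard error. The dark bars run from -0.50 for Atp6v1g3 to 2.31 for Hsd11b2, and the light bars from -0.59 for Hsd11b2 to 0.22 for Slc4a9.

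On the arrays numbered 1 and 2, the 10 genes had a median difference of 0.01, and 5 of them had a higher mean in tolerant samples, where 49.4% of all probe sets did. There Aqp3 and Slc4a9 were higher and Hsd11b2, Scnn1a and Atp6v1b1 lower without overlap, which held for 17.2% and 17.1% of all probe sets. Only Hsd11b2, 1 of the 10, was above the line on any of these arrays, on rejecting array 2, as were 9.22% of all probe sets. Limma called 0% of all probe sets there and 0 of the 10. Hsd11b2, lower in tolerant samples, had the lowest p of the 10 in limma's test (unadjusted p = 0.0144, adjusted p = 0.936). At values below the line a difference says little about expression.

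Over all 8 arrays, 9 of the 10 genes had a higher mean in tolerant samples, as had 50.1% of all probe sets, and the groups overlapped for all 10, where 1.09% of all probe sets were higher without overlap. The median difference was 0.43, against 0.00 over all genes. It was 0.17 without tolerant replicate 3 and 0.68 without tolerant replicate 1. Hsd11b2 averaged 1.93 ± 1.82 in tolerant and 1.07 ± 0.23 in rejecting samples, and Aqp2 averaged 1.37 ± 1.06 in tolerant and 0.94 ± 0.47 in rejecting samples (SD, n = 4 each). The spread of the tolerant samples exceeded both differences, which were 0.14 for Hsd11b2 and 0.01 for Aqp2 without tolerant replicate 3. None of the 10 genes passed limma's test, as did 0% of all probe sets, and 1, Scnn1b, had an unadjusted p under 0.05, as had 1.47% in the tolerant-higher direction.

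The label was set against other genes of both cell types that were no members. Of 34 such genes 31 were measured. On the arrays numbered 3 and 4 none passed limma's test in either direction, which 0.0518% of all probe sets did. At an unadjusted p under 0.05, 6 were higher and 0 lower in tolerant samples, and 4.64% of all probe sets were higher. In all, 24 of the 31 had a higher tolerant mean, where 48.2% of all probe sets did, with a median difference of 0.17. Above the line on both tolerant arrays were 9 of them, against 1 on both rejecting arrays, and 16 were below it on all 8 arrays. Of all probe sets, 17.1% were above the line on each of tolerant arrays 3 and 4. On rejecting arrays 3 and 4 it was 15.1% and 10.7%, so part of that contrast was general. The label therefore rests on part of the programme.

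Among other principal cell genes, Kcnj1, the potassium channel through which principal cells and the thick ascending limb secrete potassium, read 2.15 and 1.22 in tolerant and 0.27 and 0.71 in rejecting samples of the arrays numbered 3 and 4 (difference 1.20, limma adjusted p = 0.513). Aqp4, a basolateral water channel, and Fxyd4, a regulator of the sodium pump, were below the line on every array, with differences of -0.14 and -0.08. Nr3c2, the mineralocorticoid receptor, and Sgk1, the kinase it induces, had differences of -0.30 and 0.23. Nr3c2 was above the line on rejecting array 3 alone, and Sgk1 was below it on every array. Among other intercalated cell genes, Rhcg, an ammonia channel, read 2.13 and 1.46 in tolerant and 0.91 and 0.48 in rejecting samples (difference 1.10, limma adjusted p = 0.415). Slc4a1, the chloride-bicarbonate exchanger of acid-secreting cells, had a difference of 0.87. Slc26a4, the exchanger of base-secreting cells, and Atp6v0d2, a V-ATPase subunit of intercalated cells, were below the line on every array, with differences of 0.16 and 0.19.

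Of the 14 genes listed for the aldosterone response, 13 were measured. On the arrays numbered 3 and 4, 1 passed limma's test, where 0.0518% of all probe sets did. It was Wnk1 (10547436), a kinase that regulates sodium chloride transport, with 2.06 and 2.25 in tolerant and 0.45 and 0.44 in rejecting samples (difference 1.71, adjusted p = 0.0359). The adjusted p was 0.0672 with the replicate number as a block. A second Wnk1 probe set, 10547469, read 0.42 and 0.78 in tolerant and 0.38 and 0.57 in rejecting samples.

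Marker genes of the neighbouring distal nephron segments were counted on the same arrays. Of all probe sets there, 48.2% had a higher tolerant mean and 0.0518% passed limma's test. At an unadjusted p under 0.05, 4.64% were higher in tolerant samples. In the distal convoluted tubule list, 8 of 8 measured genes had a higher tolerant mean on the arrays numbered 3 and 4, and Slc12a3, the sodium chloride cotransporter (difference 2.93, limma adjusted p = 0.0359), and Calb1, a calcium-binding protein (difference 1.64, limma adjusted p = 0.0440), passed. With the replicate block Calb1 had an adjusted p = 0.0693. When either of tolerant replicates 3 and 4 was left out, the test called 0 probe sets in all. In the thick ascending limb list, 6 of 8 were higher and 0 passed (4 at an unadjusted p under 0.05), with Umod at 6.61 and 4.59 in tolerant and 1.76 and 2.06 in rejecting samples. In the proximal tubule list, 10 of 15 were higher, 0 passed and 2 had an unadjusted p under 0.05. On all 8 arrays, 10 of these 15 genes were below the line, among them the endocytic receptor Lrp2. So were 5 of the 8 distal convoluted tubule genes and 4 of the 8 thick ascending limb genes. Cdh16, a cadherin of tubule epithelium, read 1.98 and 1.51 in tolerant and 0.94 and 1.00 in rejecting samples.

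**Figure D3:**
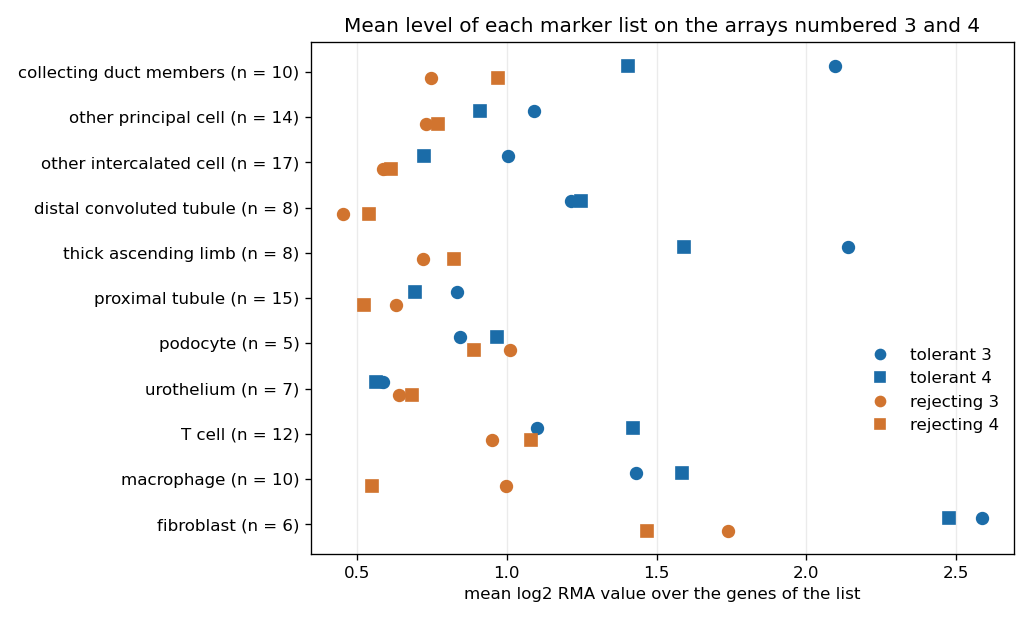
Mean log2 RMA value over the measured genes of each list (horizontal axis) on the arrays numbered 3 and 4, tolerant in blue above rejecting in orange, with circles for array 3 and squares for array 4. The collecting duct genes averaged 2.10 and 1.40 on the tolerant arrays and 0.75 and 0.97 on the rejecting arrays. The urothelium list, with 6 of 7 genes below the background line on all 8 arrays, was lower on both tolerant arrays.

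Markers of podocytes, which are kidney cells, and of other tissues gave a mixed picture on the same arrays. Of all probe sets there, 48.2% had a higher tolerant mean, and 4.64% were higher at limma's unadjusted p under 0.05. Of 7 urothelial genes 0 had a higher tolerant mean, and of 12 genes of gut, airway and skin epithelia 3 had. Limma called 0 in both lists, and 0 had an unadjusted p under 0.05. Below the line on all 8 arrays were 6 of the 7 and 9 of the 12, where a direction says little about expression. Of 5 measured podocyte genes 2 were higher, and limma called 0. At limma's unadjusted p under 0.05, 1 was higher, Podxl (difference 0.62), and 1 lower, Nphs1 (difference -0.73 at probe set 10551905). Macrophage markers were higher in 8 of 10 and fibroblast markers in 6 of 6, with limma calling 0 in both, and 4 and 5 at an unadjusted p under 0.05. With the replicate number as a block, 1 fibroblast gene, Dcn, passed (adjusted p = 0.0189). The macrophage list averaged 1.43 and 1.58 on tolerant arrays 3 and 4 and 1.00 and 0.55 on rejecting arrays 3 and 4, and the fibroblast list 2.59 and 2.48 on the tolerant and 1.74 and 1.47 on the rejecting arrays. The T cell list averaged 1.10 and 1.42 on the tolerant and 0.95 and 1.08 on the rejecting arrays. Tolerant array 4 was the higher of the tolerant arrays for the T cell, macrophage, podocyte and distal convoluted tubule lists. The last averaged 1.21 on tolerant array 3 and 1.25 on tolerant array 4. Tolerant array 3 was the higher for the collecting duct genes, but also for the thick ascending limb (2.14 against 1.59) and proximal tubule (0.83 against 0.69). The fibroblast, urothelium and other epithelia lists had that order as well. The part of these cell types, and of the brighter signal of the tolerant arrays, in the collecting duct values was not tested. More cells of a type and more RNA per cell cannot be told apart in such samples.

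The genes whose pattern over the 8 arrays was most like the mean of the 10 members came from 3655 probe sets above the line on at least 2 arrays. They were Umod, the urinary glycoprotein of the thick ascending limb (Pearson's r = 0.984), Il6st, a cytokine receptor subunit (0.983), Tfcp2l1, a transcription factor of distal nephron epithelium (0.980), Ddx54, an RNA helicase (0.979), Kirrel2, an adhesion protein (0.979), and Serinc3, a membrane protein (0.978). All are given as a description over 8 arrays. Tfcp2l1 read 2.51 and 1.46 on tolerant arrays 3 and 4 and 1.00 and 1.23 on rejecting arrays 3 and 4. Serinc3 read 4.99 and 3.95 on the tolerant and 1.45 and 1.79 on the rejecting arrays. Each of these was highest on tolerant array 3 and next on tolerant array 4.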

How the data were processed

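Total RNA of CD3-positive graft cells was biotin-labelled and hybridised to 8 arrays. Per the submitters' processing notes, the tools were RMA and Affymetrix Expression Console, and the deposited values are on a log2 scale by their range, as no source used here states the base or the version. RMA subtracts background, gives the probes of all arrays the same distribution and summarises them to probe sets, which compresses differences of dim genes. The deposited probe set values still differed in distribution, with medians from 0.47 on tolerant array 4 to 0.52 on tolerant array 2. Genes came from the platform annotation, updated by Entrez identifier to GRCm38.p6. Of 35556 probe sets, 21218 had 1 symbol, 1881 several and 12457 none listed.

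Tolerant and rejecting samples were compared by limma 3.58.1 in R 4.3.3 (linear model, empirical Bayes without trend, 2-sided, Benjamini-Hochberg over 21218 probe sets, threshold 0.05), over 8 arrays, within the arrays numbered 3 and 4 and those numbered 1 and 2, and as their interaction. The fit was tested on simulated data. List counts used the probe set with the highest mean for each gene. Plots used Python 3.11.15 and matplotlib 3.10.9. The members and lists were chosen with earlier results of these data known. Named were all members, genes fixed by name, list genes that passed and the 6 probe sets most like the members' mean profile. Outside that rule, and after values were seen, some genes next to a member on its chromosome, Cd3d, Cd28, Cd247, Dcn, Podxl and Nphs1 were named. Of the genes fixed by name, Avpr2 and Atp6v0a4 were among those not analysed here.

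Same-numbered tolerant and rejecting arrays had deviations from their group means that correlated by 0.499, 0.507, 0.410 and 0.599 for numbers 1 to 4, all above the bound of 0.1 for pairs. The labels state no pairing. Differently numbered arrays of the same set correlated alike, by 0.411 to 0.581. The bound therefore cannot tell pairs by number from the sets of bright and dim arrays. Alternatives were leaving out each array, blocks, quantile normalization, median centring, dim filters, all probe sets, a trend and averaged probe sets.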

Additional observations from a re-analysis of the deposited data

Results flagged for a closer look

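Atp6v1g3 on rejecting array 4 stood apart from the other rejecting samples, at 1.97 against 0.56 to 0.58. The gap was 0.989 of the range of the group, above Dixon's critical value for 4 samples. The 10 collecting duct genes gave 20 groups of 4 samples and 1 such case, and chance gives about 1 in 20. The other V-ATPase member, Atp6v1b1, read 1.62 on the same array, its highest rejecting value. No cause was tested.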

How the results depend on the processing

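The number of probe sets called on the arrays numbered 3 and 4 was 11. It was 0 to 48 with an array left out (0 without tolerant replicate 3 or 4, 48 without rejecting replicate 4), 17 after quantile normalization again, 5 with a filter on dim probe sets and 0 with all probe sets of the table, where more are adjusted for. With the replicate number as a block it was 8, and 0 over all 8 arrays and on the arrays numbered 1 and 2, as without the block. On the arrays numbered 1 and 2, the count was 0, and 0 to 2 with an array left out (2 without tolerant replicate 2). The interaction called 12, and 0 to 76 with an array left out (0 without tolerant replicate 3, 76 without rejecting replicate 4), 0 after quantile normalization again and 0 with all probe sets. Over all 8 arrays, and for the other principal and intercalated cell genes, the count was 0 under every alternative run. Outside the interaction, the block changed no other call named in the text than those of Wnk1, Calb1 and Dcn. Of the 10 members, 1 was among the 12 of 21218 probe sets that the interaction called. It was Scnn1a, with an interaction difference of 1.79 (limma adjusted p = 0.0364). Its difference on the arrays numbered 1 and 2, at values below the line, was -0.34. After quantile normalization again, the interaction called 0 probe sets, so this call was lost. As the members were chosen by their measured values, this count is a description. The median difference of the 10 genes on the arrays numbered 3 and 4 was 0.446 to 1.22 when 1 array was left out and 0.639 after quantile normalization again, and over all 8 arrays 0.169 to 0.677 and 0.362. Quantile normalization again took Scnn1a to 1.15 and Scnn1b to 0.64 on the arrays numbered 3 and 4. Single genes whose difference on the arrays numbered 3 and 4 moved by over 1.5 times without an array have those values beside them above. The cause of these changes was not tested. Each gene had 1 probe set, so the mean over probe sets and the paired median equal the values given. Signal near the background line limits what the dim arrays can show.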

Other observations

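The V-ATPase subunits that every cell uses were set beside the kidney forms. On the arrays numbered 3 and 4, 12 of 15 measured had a higher tolerant mean, with a median difference of 0.16, and limma called 0 (4 at an unadjusted p under 0.05). Of all probe sets there, 48.2% had a higher tolerant mean, and 4.64% were higher at that unadjusted p. Atp6v1b2, the widely expressed B subunit, read 1.03 and 0.79 in tolerant and 0.48 and 0.69 in rejecting samples, a difference of 0.32, and was below the background line on every array. Atp6v1g1, the widely expressed G subunit, had differences of 0.38 and 0.29 at its probe sets 10482330 and 10505461.

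Some of the genes next to a member on its chromosome, and genes of its family, were read beside it. Values of the other neighbours are not given here. Aqp5, the neighbour of Aqp2 on chromosome 15, read 2.26 and 2.12 on tolerant arrays 3 and 4 and 1.97 and 2.38 on rejecting arrays 3 and 4, with overlapping groups. Aqp7, next to Aqp3 on chromosome 4, was below the line on every array. Of the 10 other aquaporins, 5 had a higher tolerant mean on these arrays, their median difference was -0.01, and limma called 0 (0 at an unadjusted p under 0.05). Atp6v0d1, next to Hsd11b2 on chromosome 8, read 0.49 and 0.61 in tolerant and 0.39 and 0.47 in rejecting samples. Of 8 other measured Slc4 bicarbonate transporters, 6 had a higher tolerant mean, with a median difference of 0.11, and limma called 0 (1 at an unadjusted p under 0.05). For both families the share of all probe sets with a higher tolerant mean was 48.2%, and 4.64% were higher at that unadjusted p.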
